A study of Mus musculus with 6 samples.

Results

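Store-operated calcium entry is the route by which a cell refills the calcium store of its endoplasmic reticulum (ER), and 10 genes that carry it out were followed here in control and Celf1cKO lenses of newborn mice. The genes were Saraf, Stim1, Stim2, Orai1, Orai2, Orai3, Itpr1, Itpr2, Itpr3 and Atp2a2. They were matched by symbol in the deposited expression table, and all 10 were found among its 13931 genes. The list is named for Saraf and was chosen with its difference between Celf1cKO and control lenses known, and the other genes were chosen by their role beside it. The group differences of these 10 genes are therefore given as a description, with no test read from them.

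RNA was sequenced from whole lenses of mice at birth (P0) on a mixed C57BL/6J and FVB background, with 3 control and 3 Celf1cKO libraries, each from a pair of pooled lenses. Celf1cKO lenses carried a germline knockout allele of Celf1 (Celf1lacZKI), a floxed allele and the Pax6GFPCre transgene, which drives Cre in the lens from the placode stage on. Controls are labelled Celf1lacZKI/+, so that both groups would share the germline allele, whereas the methods of the study name floxed mice without Cre as controls unless noted, and the control genotype is not settled. Celf1 encodes an RNA-binding protein that binds GU-rich stretches of mRNA and acts on mRNA decay, splicing and translation.

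Between 40694454 and 44387151 reads were counted on genes per library. Values below a set read number were checked, and all of these worked back to whole reads within 0.1 read. Higher values, those of Saraf, Atp2a2 and Celf1 among them, were not checked in this way. Celf1 itself stood at 9.95, 9.94 and 9.34 log2 CPM (CPM, counts scaled to a common library size, on the log2 scale with a small prior count) in control replicates 1 to 3 and at 8.93, 7.66 and 7.83 in Celf1cKO replicates 1 to 3. The groups did not overlap, Celf1 mRNA was reduced but still present in the Celf1cKO lenses, and Celf1cKO replicate 1 held the most of the 3. Of the lens fiber markers, 9 of 10 were in the table and summed to between 291358 and 333008 CPM in controls and between 232077 and 246633 CPM in Celf1cKO lenses, with 2 of them called reduced. All 8 lens epithelial markers were present, at 14519 to 16977 and 8971 to 11333 CPM, with 3 called reduced. Of all genes, 2.63% were called reduced by the cut-offs given below, and nothing is read from the marker counts. The fiber sums are led by Cryaa and the epithelial sums by Cryab. Without those genes the ranges were 143181 to 172245 against 112369 to 122729 CPM for fiber and 1707 to 2206 against 1424 to 1857 CPM for epithelium. Of the other cell types, the macrophage, retinal, pigment, erythroid, corneal and muscle markers found each summed to at most 21.2 CPM in any library. Those found were 5 of 7 macrophage, 4 of 7 retinal, 4 of 5 pigment, 1 of 6 erythroid, 1 of 7 corneal and 1 of 7 muscle markers. The erythroid sum is Alas2 alone, the corneal sum Krt4 alone and the muscle sum Des alone. The 7 endothelial and pericyte markers summed to 173, 138 and 170 CPM in controls and to 147, 27.4 and 78.6 CPM in Celf1cKO replicates 1 to 3, with no marker called. In bulk RNA of this kind, fewer cells of a type and less RNA per cell cannot be told apart.

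In most cells, phospholipase C makes inositol trisphosphate (IP3), which opens the IP3 receptors (Itpr1, Itpr2, Itpr3) and lets calcium out of the ER. STIM proteins (Stim1, Stim2) sense the falling calcium in the ER lumen and move to contacts with the plasma membrane, where they open the ORAI channels (Orai1, Orai2, Orai3). SARAF is an ER membrane protein that associates with STIM1 and promotes the slow inactivation of the entry, and the SERCA2 pump (Atp2a2) returns calcium to the ER. The lens keeps a low free calcium, and a rise of lens calcium is a known companion of cataract.

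CELF1 is known to bind GU-rich stretches in the 3′ untranslated region (3′UTR), so the 3′UTRs of the 10 genes were searched on the sense strand in the longest coding transcript of each (GENCODE M21, GRCm38). UGUUUGUUUGU was found in the 3′UTR of Orai2 alone among the 10 and in 4.157% of 13111 3′UTRs of genes in the table. UGUGUGUGUGU was found in Orai1 alone, against 8.504% of 3′UTRs. The shorter UGUUUGU, which the first of these contains, lay, overlaps counted, once each in Saraf, Stim2, Orai1 and Itpr2, 4 times in Orai2 and in none of the other 5, against 29.487% of 3′UTRs. The 3′UTRs read here were 695 bases (Itpr3) to 3372 bases (Itpr2) long, and the median over all was 1172 bases. A match is a match of letters, not a measured binding site. The match in Saraf and the longer matches in the ORAI genes are shown in 30-base windows as DNA, 5′ to 3′ along the transcript, with the matched bases in capitals. The window of Saraf lies at chr8:34170242-34170271 on the plus strand, that of Orai1 at chr5:123030030-123030059 on the plus strand and that of Orai2 at chr5:136147511-136147540 on the minus strand. The capitals in Orai1 span 13 bases and those in Orai2 span 15 bases, each with 2 overlapping matches.
Saraf 3′UTR: tcgtgtcccgtTGTTTGTggccaagagttg
Orai1 3′UTR: tgtgtgcgTGTGTGTGTGTGTgagagagaa
Orai2 3′UTR: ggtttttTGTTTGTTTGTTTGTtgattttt

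Promoters were read for the partner genes Stim1 and Orai1, whose mRNA levels differed between the groups in opposite directions. They come from RefSeq (GRCm38.p6), which had entries for 7 of the 10 genes, with Saraf, Itpr1 and Atp2a2 missing. Each window runs from 250 bases before the start of the gene to 50 bases after it, at chr7:102267569-102267868 for Stim1 and chr5:123014824-123015123 for Orai1, both on the plus strand. Capitals mark GGGCGG (the GC box) and CCAAT (the CCAAT box) on either strand, and TATAAA was searched as well. Stim1 held 8 GC boxes and neither of the other motifs, in a window of 78.7% G and C. Orai1 held 3 GC boxes and 1 CCAAT box, in a window of 70.3% G and C. Of 32851 promoters, 35.658% held GGGCGG, 37.408% held CCAAT and 13.616% held TATAAA.
Stim1 promoter: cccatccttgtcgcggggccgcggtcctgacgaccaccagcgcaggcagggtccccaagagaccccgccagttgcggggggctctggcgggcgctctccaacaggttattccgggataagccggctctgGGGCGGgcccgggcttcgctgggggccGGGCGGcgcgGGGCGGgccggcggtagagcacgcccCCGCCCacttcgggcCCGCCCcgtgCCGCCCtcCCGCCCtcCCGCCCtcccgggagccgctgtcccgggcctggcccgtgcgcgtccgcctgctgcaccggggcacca
Orai1 promoter: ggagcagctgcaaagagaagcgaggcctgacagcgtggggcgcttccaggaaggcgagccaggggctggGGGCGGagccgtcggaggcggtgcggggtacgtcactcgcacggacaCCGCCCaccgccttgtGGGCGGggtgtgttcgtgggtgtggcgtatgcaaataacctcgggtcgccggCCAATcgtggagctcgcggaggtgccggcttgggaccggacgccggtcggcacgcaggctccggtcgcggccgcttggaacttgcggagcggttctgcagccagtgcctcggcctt

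Saraf and Orai1 were higher and Stim1 and Itpr2 lower in Celf1cKO lenses by all the cut-offs of the study, and the other 6 genes did not meet them. The cut-offs were an adjusted p-value under 0.05 (limma, Benjamini-Hochberg over all genes), a log2 fold-change over 0.58 in either direction and an average over 1 log2 CPM. Over all 13931 genes, 664 (4.77%) met them as elevated and 366 (2.63%) as reduced. Without regard to size, 3 of the 10 genes had all Celf1cKO libraries above all controls, as did 2719 genes of the table (19.5%), and 4 had them all below, as did 2370 genes (17.0%). The median log2 difference of the 10 genes was -0.38, and that of all genes was -0.04. Nothing is read from these counts about the genes as a set, because the contrast that chose them is the one counted. All 10 averaged over 1 log2 CPM, and the fewest reads of any of them in a library were 55, for Itpr3.

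**Figure D1:**
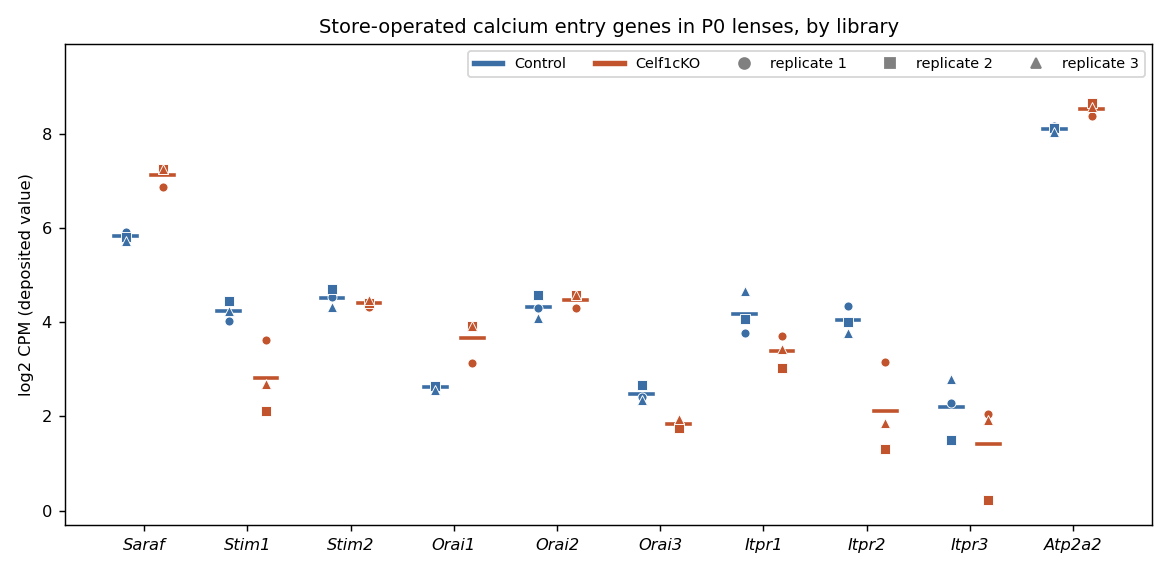
Deposited log2 CPM of the 10 genes in each library, with controls in blue, Celf1cKO in orange, a mark for each replicate number and a bar at the mean of each group. Saraf, Orai1 and Atp2a2 lie above all controls in every Celf1cKO library, and Stim1, Orai3, Itpr1 and Itpr2 lie below them.

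Saraf (chr8:34154575-34170821, plus strand), the inhibitor of the route, was at 5.92, 5.81 and 5.73 log2 CPM in the controls and at 6.86, 7.24 and 7.25 in Celf1cKO replicates 1 to 3. Every Celf1cKO library was higher than every control by at least 0.95 on the log2 scale, with the smallest rise in Celf1cKO replicate 1. The log2 difference was 1.30 (SE 0.12, n = 3 per group), or 2.46-fold, and it rested on 2087 to 2313 reads in controls and 5003 to 7501 in Celf1cKO lenses. With a library left out in turn, the log2 difference lay between 1.23 and 1.43. It stayed past the cut-offs in 4 of 6 such fits, and not without control replicate 2 (1.30) or without Celf1cKO replicate 3 (1.23). In those 2 fits a single gene of the whole table was past them.

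Stim1 (chr7:102267806-102437319, plus strand), the main ER calcium sensor and the partner of SARAF, was at 4.03, 4.44 and 4.23 log2 CPM in controls and at 3.63, 2.11 and 2.69 in Celf1cKO lenses. All 3 Celf1cKO libraries were lower, but replicate 1 lay 0.40 under the lowest control while replicate 2 lay far below it. The log2 difference was -1.43 (SE 0.36), a level 2.69-fold lower. It passed the cut-offs in 1 of the 6 fits with a library left out, that without Celf1cKO replicate 1 (-1.84), and the smallest in size was -1.08, without Celf1cKO replicate 2. The order of the Celf1cKO libraries for Stim1 was also that of their Celf1 mRNA and of their summed endothelial and pericyte markers. In controls the order for Stim1 was the reverse of that of these markers and was not that of Celf1. The part of either in the difference was not tested. Stim2 (chr5:53998499-54121057, plus strand), a sensor that responds to smaller losses of ER calcium, was at 4.53, 4.70 and 4.32 in controls and at 4.33, 4.41 and 4.47 in Celf1cKO lenses. Its groups overlapped, with a log2 difference of -0.12 (SE 0.13) that turned to 0.11 when libraries were scaled by their total counted reads.

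Of the ORAI channel genes, Orai1 passed the cut-offs and Orai2 and Orai3 did not. Orai1 (chr5:123015074-123030456, plus strand), which encodes the pore of the classical entry current, was at 2.65, 2.65 and 2.56 log2 CPM in controls and at 3.14, 3.93 and 3.92 in Celf1cKO lenses. The groups did not overlap, with Celf1cKO replicate 1 again the nearest to the controls. The log2 difference was 1.04 (SE 0.23), or 2.06-fold, on 230 to 239 reads in controls and 377 to 743 in Celf1cKO lenses. With a library left out it met the cut-offs in 1 of 6 fits, that without Celf1cKO replicate 1 (1.30), and the lowest value was 0.91, without Celf1cKO replicate 2. Orai2 (chr5:136147459-136170713, minus strand), a channel subunit that can join ORAI1 in the pore, was at 4.30, 4.58 and 4.09 in controls and at 4.29, 4.57 and 4.57 in Celf1cKO lenses. Its groups overlapped, with a log2 difference of 0.16 (SE 0.16). Orai3 (chr7:127769815-127775150, plus strand), the mammalian-specific subunit, was at 2.40, 2.67 and 2.35 in controls and at 1.81, 1.75 and 1.95 in Celf1cKO lenses. All its Celf1cKO libraries were below all controls and close to each other, with a log2 difference of -0.64 (SE 0.18), and it did not pass the adjusted p-value. Exons of Orai1 overlap those of Gm2479 on the opposite strand, which is not in the table, and how the counting treated strand is not given in the sources used here.

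**Figure D2:**
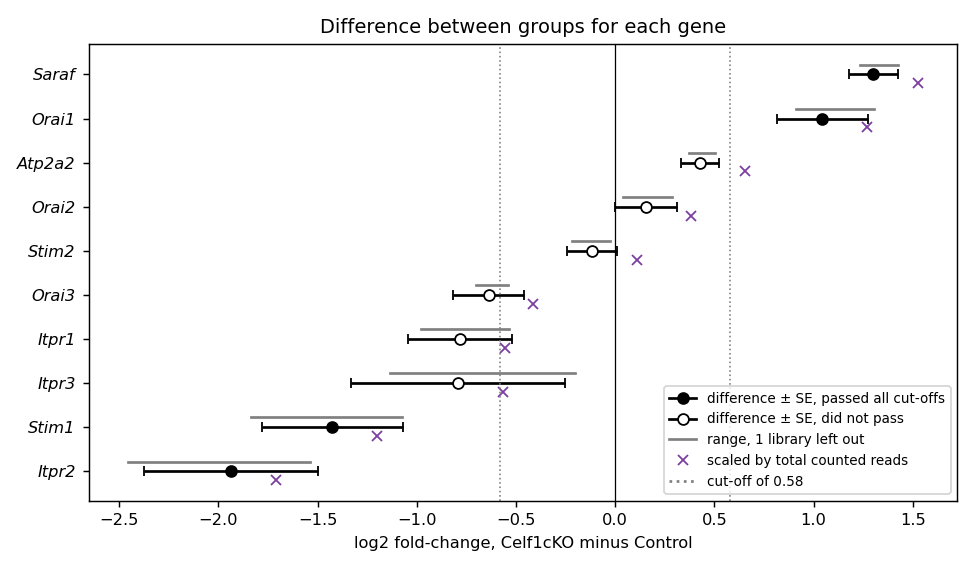
Log2 fold-change of each gene (Celf1cKO minus control) with its SE, filled where all cut-offs were passed, with the range over fits that leave out a library (grey line) and the value after scaling by total counted reads (cross). Saraf varied little over the fits with a library left out, from 1.23 to 1.43, and Itpr2 varied from -2.46 to -1.54.

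The IP3 receptors, the release channels of the ER, were on average lower in Celf1cKO lenses, and Itpr2 passed the cut-offs. Itpr2 (chr6:146108299-146502223, minus strand) was at 4.35, 4.01 and 3.77 log2 CPM in controls and at 3.15, 1.31 and 1.86 in Celf1cKO lenses. All Celf1cKO libraries were below all controls, and replicates 2 and 3 were the lowest. The log2 difference was -1.94 (SE 0.44), a level 3.83-fold lower, which was the largest of the 10 genes in size. It passed the cut-offs without Celf1cKO replicate 1 (-2.46) and not in the other 5 fits with a library left out, which reached down in size to -1.54 without Celf1cKO replicate 2. Itpr1 (chr6:108213096-108551109, plus strand), the receptor best known from Purkinje neurons, was at 3.78, 4.08 and 4.67 in controls and at 3.71, 3.03 and 3.44 in Celf1cKO lenses. The groups stood apart by 0.07 at their nearest libraries, and the log2 difference of -0.78 (SE 0.26) did not pass the adjusted p-value. Itpr3 (chr17:27057304-27122223, plus strand) was at 2.29, 1.51 and 2.79 in controls and at 2.06, 0.24 and 1.93 in Celf1cKO lenses, so that the groups overlapped, although it was lower in the Celf1cKO library of each replicate number. Its log2 difference of -0.79 (SE 0.54) rested on 55 to 271 reads per library, and with a library left out it ranged from -1.14 to -0.21, the latter without Celf1cKO replicate 2. For all 3 receptors Celf1cKO replicate 1 was the highest and replicate 2 the lowest of the Celf1cKO libraries. That was the order also of Celf1 mRNA and of the endothelial and pericyte markers. In controls none of the 3 receptors followed the order of these markers, and Itpr2 alone followed that of Celf1. The part of either was not tested. Itpr1 and Itpr3 share exonic bases with opposite-strand genes (Gm44101, Gm44040 and Itpr3os) that are not in the table.

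Atp2a2 (chr5:122453513-122502225, minus strand), which encodes the SERCA2 pump that refills the ER, was at 8.17, 8.11 and 8.03 log2 CPM in controls and at 8.38, 8.65 and 8.56 in Celf1cKO lenses. All Celf1cKO libraries were above all controls, by 0.21 at the nearest. The log2 difference of 0.43 (SE 0.09), or 1.35-fold, was under the size cut-off. When libraries were scaled by their total counted reads it was 0.65 and passed, a scaling that moved the median of expressed genes from 0.004 to 0.23. Its exons overlap those of Gm43361 on the opposite strand, which is not in the table.

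Celf1cKO replicate 1 was the Celf1cKO library nearest to the control mean for 8 of the 10 genes, all but Stim2 and Orai3. That library was also the nearest for 55.4% of the expressed genes and for 85.4% of the genes past the cut-offs, and it held the most Celf1 mRNA of its group. Without it, Saraf differed by 1.43, Orai1 by 1.30, Stim1 by -1.84 and Itpr2 by -2.46 on the log2 scale.

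Levels were compared between genes as log2 CPM per kilobase of merged exons, within each library, a quantity that played no part in choosing the genes. In this order Atp2a2 had a mean level of 5.71 ± 0.25 (SD, n = 6 libraries) and Saraf 4.92 ± 0.73. Stim2 (2.10 ± 0.14), Orai1 (1.94 ± 0.64) and Orai2 (1.80 ± 0.20) followed, but their order differed between the groups. Stim2 less Orai1 was 0.74 ± 0.15 in controls and -0.42 ± 0.39 in Celf1cKO lenses (SD, n = 3). Below them came Orai3 at 1.06 ± 0.37, Stim1 at 0.15 ± 0.93, Itpr1 at -0.41 ± 0.56, Itpr2 at -0.81 ± 1.23 and Itpr3 at -1.37 ± 0.88. The pump and the inhibitor thus had far more mRNA per length than any sensor, entry channel or release channel, in each group as well.

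Each gene was tested against the next in this order with a two-sided exact permutation test over the 6 libraries, which cannot go below p = 0.03125, with adjustment over the 9 pairs. Atp2a2 was above Saraf, Saraf above Stim2, Orai2 above Orai3 and Orai3 above Stim1 in 6 of 6 libraries, each at that smallest p (adjusted p = 0.0703 by the exact test), so that none of the 9 pairs passed 0.05 after adjustment. The gaps in these 4 pairs were 0.79, 2.82, 0.74 and 0.91 on the log2 scale. Stim1 was above Itpr1 in 5 of 6 libraries (exact p = 0.0938, adjusted p = 0.169). The other 4 pairs, Stim2 and Orai1 (exact p = 0.5), Orai1 and Orai2 (exact p = 0.531), Itpr1 and Itpr2 (exact p = 0.312) and Itpr2 and Itpr3 (exact p = 0.25), did not differ beyond the spread over the 6 libraries, which includes the difference between the groups. Within the groups the mean gap changed sign in each of these pairs. Orai1 less Orai2 was -0.30 ± 0.21 in controls and 0.59 ± 0.29 in Celf1cKO lenses, Itpr1 less Itpr2 was -0.18 ± 0.74 and 0.98 ± 0.63, and Itpr2 less Itpr3 was 1.13 ± 0.78 and -0.02 ± 0.66. These gaps within groups were computed after the data were seen, and the exact permutation test over 3 libraries cannot go below p = 0.25. The order was the same with each library left out, and with length taken from the longest transcript alone Orai2 moved to rank 3, Stim2 to rank 5, Stim1 to rank 6 and Orai3 to rank 7. By group, Orai1 ranked 5 in controls and 3 in Celf1cKO lenses, and Itpr2 ranked 8 and 10.

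The make-up of each family was then read as the share of its summed CPM per kilobase. Orai1 made up 32.4%, 28.3% and 33.1% of ORAI mRNA in controls and 44.1%, 54.7% and 53.5% in Celf1cKO lenses, means of 31.3% ± 2.6 and 50.8% ± 5.8 (SD, n = 3). Orai3 made up 30.3% ± 0.9 in controls and 15.5% ± 3.0 in Celf1cKO lenses, while Orai2 held 38.4% ± 2.4 and 33.7% ± 2.9. On this length Orai2 was the largest in each control library and Orai1 in each Celf1cKO library. With the length of the longest transcript, an alternative added after the data were seen, Orai1 held 30.1% in controls and 48.2% in Celf1cKO lenses and Orai2 held 46.1% and 39.8%, and Orai2 was the larger in Celf1cKO replicate 1 (43.6% against 41.8%). The ORAI sum itself was 3.10 ± 0.16 log2 CPM per kilobase in controls and 3.45 ± 0.28 in Celf1cKO lenses, and its libraries overlapped.

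Stim2 held 71.0% ± 2.9 of STIM mRNA in controls and 85.0% ± 7.5 in Celf1cKO lenses. This share depends on the length used, and with that of the longest transcript it was 51.8% ± 3.6 and 71.8% ± 11.6, with Stim1 the larger in control replicate 3 (51.5%). The STIM sum was 2.65 ± 0.17 log2 CPM per kilobase in controls and 2.28 ± 0.08 in Celf1cKO lenses. Among the IP3 receptors, Itpr2 held 42.8% ± 11.4 in controls and 25.3% ± 7.5 in Celf1cKO lenses, Itpr1 37.6% ± 8.7 and 49.0% ± 10.0, and Itpr3 19.6% ± 5.7 and 25.7% ± 8.0. The shares of all 3 overlapped between the groups, but between libraries of the same replicate number Itpr2 was lower and Itpr1 and Itpr3 were higher in the Celf1cKO library in all 3 pairs. The sum of the receptors was 1.42 ± 0.20 log2 CPM per kilobase in controls and 0.24 ± 0.63 in Celf1cKO lenses, with the lowest value, -0.43, in Celf1cKO replicate 2.

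**Figure D3:**
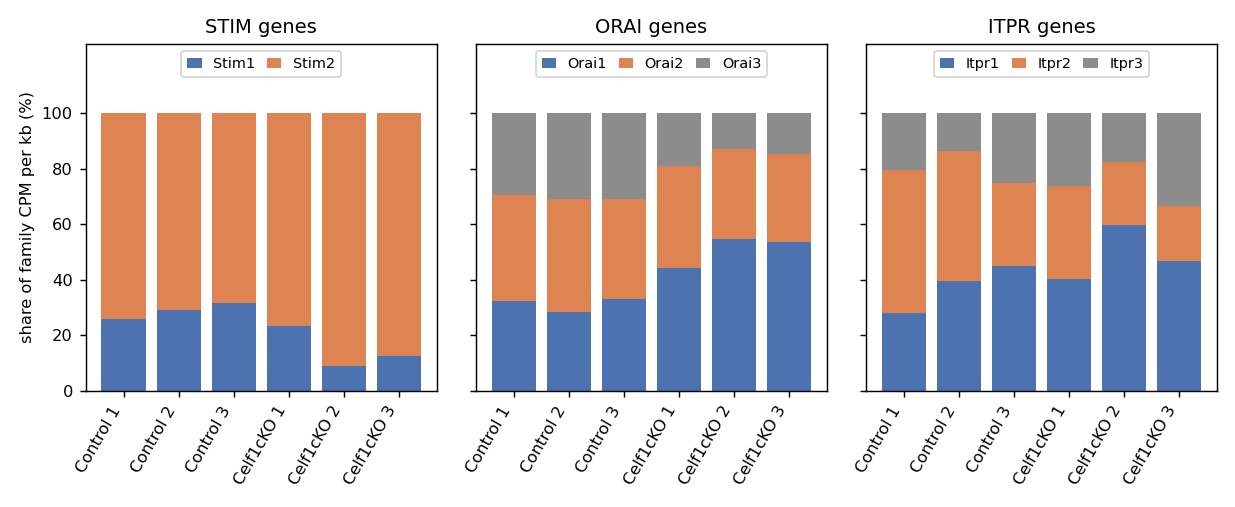
Share of each gene in the summed CPM per kilobase of its family, as stacked bars for the 6 libraries. Orai1 takes 28.3% to 33.1% of ORAI mRNA in control libraries and 44.1% to 54.7% in Celf1cKO libraries.

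Ratios within a library do not depend on how libraries are scaled. Saraf over Stim1, the inhibitor over the sensor it acts on, was 3.71, 3.19 and 3.32 on the log2 scale of CPM per kilobase in controls and 5.06, 6.96 and 6.38 in Celf1cKO lenses. As Saraf was above and Stim1 below all controls in every Celf1cKO library, this ratio could not overlap between the groups. The geometric mean ratio was 10.6 in controls and 70.2 in Celf1cKO lenses, a 6.62-fold difference. Without Celf1cKO replicate 1 the Celf1cKO ratio was 101.9. Saraf over Stim2 was 4.31 in controls and 11.5 in Celf1cKO lenses. Orai1 over Stim1, the channel over its activator, was 1.47 in controls and 8.16 in Celf1cKO lenses, where its log2 values were 1.69, 3.99 and 3.40. Without Celf1cKO replicate 1 the latter ratio was 13.0. Saraf over Orai1, which were both higher, moved less, from 7.20 to 8.61. The pump over the release channel, Atp2a2 over Itpr2, was 40.6 in controls and 209 in Celf1cKO lenses, or 316 without Celf1cKO replicate 1. The size of each ratio between genes depends on the exon lengths used, while its difference between the groups does not. That difference follows from the differences of the genes themselves, so it restates the contrast that chose them and is no further result.

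**Figure D4:**
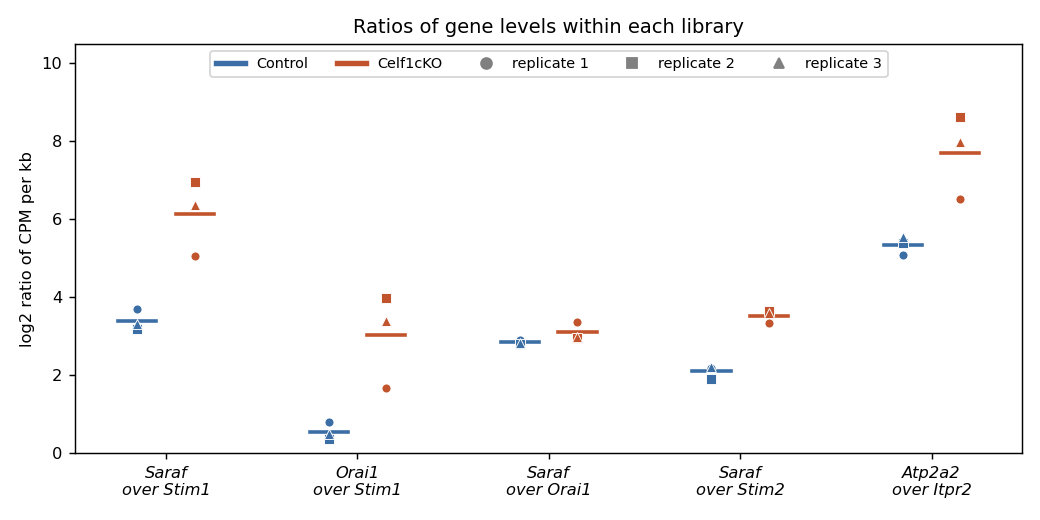
Log2 ratios of CPM per kilobase within each library, with controls in blue, Celf1cKO in orange, a mark for each replicate number and a bar at each group mean. Saraf over Stim1 lies at 3.19 to 3.71 in controls and at 5.06 to 6.96 in Celf1cKO libraries, and Saraf over Orai1 spans a narrower range, 2.81 to 3.37, over all libraries.

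Among 10639 other genes with an average over 1 log2 CPM, those most like Saraf across the 6 libraries were Eif1b, Zfr, Srpr, Terf2ip and Hspa2, with Pearson r between 0.9983 and 0.9995. The 6 points fall into the 2 groups, and 795 genes had an r over 0.95, so that such an r is common here. By deviations from the group means, the most alike were Srpr, Tspyl1, Mrtfa, Ahcyl2 and Sync. Of these Mrtfa was lower in Celf1cKO lenses (log2 difference -0.57), and the other 4 were higher, by 0.62 to 1.07. Of the other members, r with Saraf across the 6 libraries was 0.98 for Atp2a2, 0.96 for Orai1, -0.92 for Stim1, -0.92 for Itpr2 and -0.91 for Orai3, over the same libraries that chose Saraf.

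Beyond the 10 genes, 7 lists of calcium genes held 112 symbols, of which 103 were in the table. The lists were chosen with earlier results of these data known, so nothing is read from their counts about calcium genes as a set. Of the 103, 85 averaged over 1 log2 CPM, which a call requires, against 10640 of all 13931 genes. By the same cut-offs 11 of the 103 (10.7%) were called elevated and 2 (1.94%) reduced, against 4.77% and 2.63% of all genes. The median log2 difference of the 103 was 0.08, against -0.04 for all genes. With the replicate block 11 were elevated and 5 reduced, the added genes being Itpripl2, Plcg1 and Nfatc4 (log2 differences -1.13, -0.59 and -0.90), which are named after their values were seen. The ER pumps, leak channels and release channels held 4 of 12 called elevated and none called reduced. Ryr3, a ryanodine receptor that releases ER calcium, was at 1.29, 0.93 and 0.70 log2 CPM in controls and at 2.20, 1.99 and 2.02 in Celf1cKO lenses (log2 difference 1.10, SE 0.23, limma adjusted p = 0.0261). Every Celf1cKO library was above every control. Fkbp1b and Fkbp1a, which encode small binding proteins of the ryanodine receptors, rose by 0.83 (limma adjusted p = 0.0417) and 0.61 (limma adjusted p = 0.0222), and Tmco1, an ER protein with a described calcium leak function, rose by 0.68 (limma adjusted p = 0.0231).

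Of 15 calcium-binding and folding proteins of the ER lumen, 2 were called elevated and none reduced. Of all genes, 4.77% were called elevated and 2.63% reduced, and nothing is read from the count of any single list. P4hb, a protein disulfide isomerase, was higher by 0.66 (limma adjusted p = 0.0150), and Canx, the lectin chaperone calnexin, by 0.61 (limma adjusted p = 0.0127). In the calmodulin, calcineurin and NFAT list, 3 of 15 were called elevated and none reduced. Among them Calm2, which encodes the calcium sensor calmodulin, rose by 0.72 (limma adjusted p = 0.0160), and Rcan3, of the family of calcineurin regulators, rose by 0.70 (limma adjusted p = 0.0385).

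Of 15 partners of the IP3 receptor, Homer2, a scaffold protein, rose by 0.88 (limma adjusted p = 0.0451, and 0.0549 by voom on recovered reads, which lost this call), and Ahcyl2, a relative of the receptor-binding protein IRBIT, rose by 0.67 (limma adjusted p = 0.0137). Jph2 (junctophilin), which ties the ER to the plasma membrane, was the only gene called of 20 regulators of entry and junction proteins. It was at 2.43, 2.73 and 2.86 log2 CPM in controls and at 1.75, -0.10 and 1.11 in Celf1cKO lenses (log2 difference -1.76, SE 0.44, limma adjusted p = 0.0455). Of 12 genes of IP3 production, Plch1, a phospholipase C, fell by 1.16 on the log2 scale (limma adjusted p = 0.0492) and none was called elevated. None of the 14 genes of mitochondrial calcium uptake was called by limma on the deposited values or by voom on recovered reads. Of these 14 genes, 7 had an unadjusted p under 0.05 (limma), a count for which the share of all genes is not given here.

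All 13 called genes had groups that did not overlap, which a call on the same libraries favors, so it is no further support. Over the table, 19.5% of genes had all Celf1cKO libraries above all controls and 17.0% had them all below. Each of the 13 was called in 1 to 4 of the 6 fits with a library left out. None of them was called without control replicate 2 or without Celf1cKO replicate 3.

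**Figure D5:**
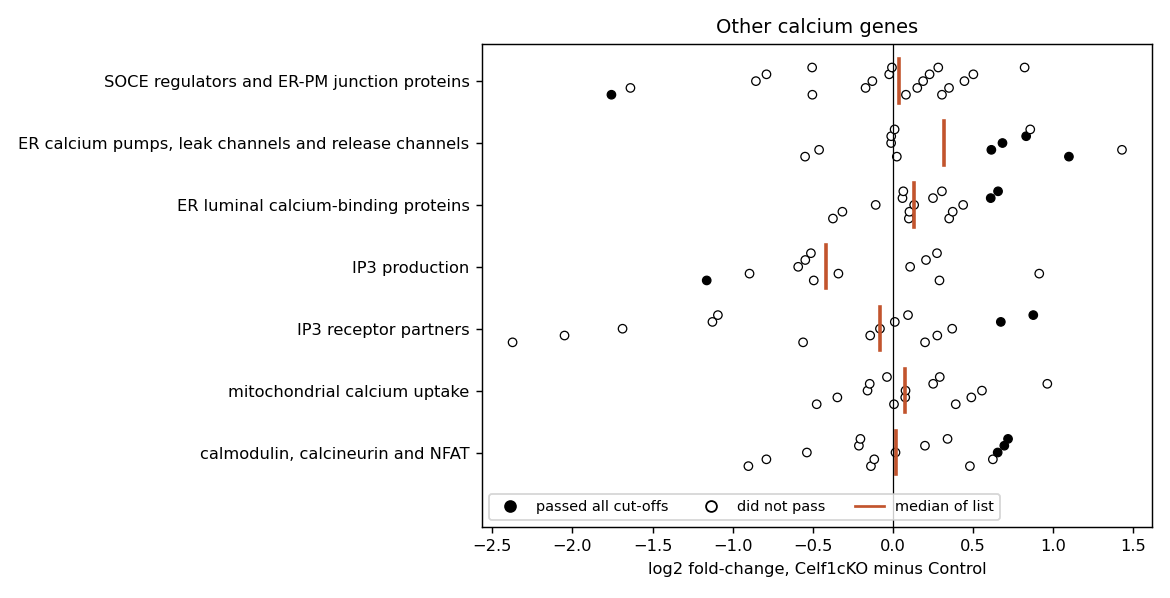
Log2 fold-change (Celf1cKO minus control) of the 103 other calcium genes by list, filled where all cut-offs were passed, with an orange bar at the median of each list. The 4 elevated genes among ER pumps, leak channels and release channels lie between 0.61 and 1.10, and the medians of the lists lie between -0.42 and 0.32.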

How the data were processed

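Total RNA of P0 lenses was sequenced in strand-specific paired-end libraries. Reads were trimmed by the authors, aligned with STAR 2.7.8a to GRCm38.p6, kept where unique and counted per gene with featureCounts 2.0.0. After edgeR normalization the authors deposited log2 CPM values with a prior count for 13931 genes. Deposited columns with the authors' log2 fold-changes, F statistics, p-values and FDR hold the study's own comparison and were not used. Their average log2 CPM served only as the expression cut-off, which 10640 genes passed.

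Read numbers were recovered from the spacing of low values, and a count of 3 reads served as the floor. Each SD given is the spread between libraries. Each SE of a log2 difference is the moderated value from limma, which draws on the variance of all genes as well. No counting intervals were made. Groups and replicate numbers came from the labels.

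The deposited values were compared between groups with limma 3.58.1 (R 4.3.3), using an intensity-dependent prior variance, no block and Benjamini-Hochberg adjustment over the whole table, and the fit was tested on simulated data. The 10 genes and the calcium and marker lists were chosen with earlier results of these data known. Up to 4 called genes of each calcium list are named, by size of difference, and the 5 genes most like Saraf by each measure. A called gene that the rule would name is not reported here. Marker levels are sums of CPM, the antilog of the deposited values. Lengths and positions came from GENCODE M21 (GRCm38), where 13928 genes of the table were found, and promoters from RefSeq. Python 3.11.15 and matplotlib 3.10.9 were used.

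Pairing by replicate number was checked as the correlation of deviations from the group means between a control and the Celf1cKO library of the same number. It was 0.302, 0.417 and 0.348 over expressed genes, above 0.1 in each pair. The numbers may therefore pair the libraries, although no source describes a pairing. The main fit left the pairing out, as the methods of the study name no block, and the block was run as an alternative. The fit was repeated with the replicate block, without a variance trend, with robust moderation, with another pseudocount, with 4 other scalings or centrings, with voom on recovered reads, with other cut-offs, and with each library left out.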

Additional observations from a re-analysis of the deposited data

How the results depend on the processing

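All 10 genes kept the direction of their difference wherever an alternative could change it, except Stim2 under scaling by total counted reads (0.11). Adding the block, altering the variance model, limiting the genes fitted or moving a cut-off leaves every log2 difference at its main value. Under those alternatives direction could not change, and only the side of the cut-offs was open. Over all combinations of gene and alternative, 165 kept their direction and side of the cut-offs, 23 lost a call and 1 gained a call. The gained call was that of Atp2a2 under scaling by total counted reads. Every lost call was of Saraf, Stim1, Orai1 or Itpr2, as the other 6 genes had none to lose. Saraf kept its call in 13 of 13 alternatives with all libraries and in 4 of 6 with a library left out. Stim1, Orai1 and Itpr2 each kept theirs in 11 of 13 and in 1 of 6. With the replicate block the calls of the 10 genes were the same, at 2 elevated and 2 reduced. The block gave 756 elevated and 523 reduced genes over the table, against 664 and 366. It kept every call made without it among the other calcium genes. It added Itpripl2, Plcg1 and Nfatc4, so that 5 rather than 2 of the other calcium genes were reduced. Without the variance trend, 306 and 115 genes were called over the table, 1 and 0 of the 10 genes and 3 and 0 of the other calcium genes, and with an adjusted p under 0.01 (limma) 91 and 22, 1 and 0, and 0 and 0. In these fits Saraf was the gene still called, while 3 and 4 of the 10 genes had an unadjusted p under 0.05 in each direction. With a log2 fold-change over 1, 219 and 168 genes were called, and 1 other calcium gene was elevated. Scaling by total counted reads called 1663 and 204 genes, 89.1% of them elevated against 64.5%, with 21 and 1 other calcium genes. Rescaling without crystallin genes left 1 other calcium gene reduced. With a library left out, elevated and reduced genes ranged from 1 to 1039 and from 0 to 877 over the table, from 0 to 2 in each direction among the 10 genes, and from 0 to 15 and 0 to 8 among the other calcium genes. The lowest values came without control replicate 2 or Celf1cKO replicate 3, and the highest came without Celf1cKO replicate 1. In the former fits 3 and 4 of the 10 genes kept an unadjusted p under 0.05 (limma), as did 23 to 26 and 11 to 13 of the other calcium genes. The share of all genes with an unadjusted p under 0.05 is not given here, and the 10 genes were chosen with this contrast known. Nothing is therefore read from such counts. No pair of neighbours in the order of levels passed 0.05 after adjustment under any alternative, and 0 of 9 could pass with 5 libraries.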
